A study of Mus musculus with 12 samples.

Results

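The regenerating (Reg) genes Reg1, Reg3a, Reg3b, Reg3g and Reg4 and the resistin-like gene Retnlb were followed in the mouse colon, as 6 of the 54532 genes in the count tables, chosen by their symbols. Reg genes encode small secreted proteins with a C-type lectin domain. Reg3b and Reg3g are made by the gut epithelium and act on bacteria close to the mucosa, and interleukin 22 and STAT3 are known to drive their transcription. Retnlb encodes resistin-like molecule beta, a goblet cell product that also acts on bacteria but is not a lectin, so the set is described here by its genes and not as lectins. Reg1 and Reg3a are best known from the exocrine pancreas and the small intestine, and Reg4 from the deep crypt secretory cells of the colon.

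All mice were male C57BL/6 and arrived at 6 weeks of age for 1 week of adaptation. The Con mice received no DSS (dextran sulfate sodium, a chemical that damages the lining of the colon). The sample labels call them untreated, and the methods describe vehicle gavage. The DSS mice drank 3% DSS for 5 days, and the methods describe vehicle gavage for them too. The UA+DSS and DSS+UA mice received the same DSS and 200 mg/kg ursolic acid (UA, a plant triterpenoid) by daily gavage. It started 1 day before DSS in UA+DSS and 3 days after the start of DSS in DSS+UA. UA was given on more days in UA+DSS than in DSS+UA, and the sections of the paper differ on how many. Each of the 4 groups had 3 libraries of total RNA from whole colon, 12 in all, each from its own mouse, and a library is named here by its group and replicate number. No label gives the part of the colon taken.

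The libraries held 15566216 to 19498383 counts. Levels are given as CPM (counts divided by the TMM-scaled library size, on a common scale). The comparisons came from a single edgeR quasi-likelihood fit of the 12 libraries, and a gene was called changed at an adjusted p (Benjamini-Hochberg, over all 17658 tested genes) under 0.05. In bulk tissue, fewer cells of a type and less RNA per cell cannot be told apart. Epithelial markers were present in every library, with a summed level of 13918 to 19420 CPM in Con, 7881 to 12648 CPM in DSS, 15165 to 18123 CPM in UA+DSS and 16547 to 25764 CPM in DSS+UA over 10 genes.

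Some libraries stood apart. DSS 3 held pancreatic acinar transcripts: of 24 acinar markers, the 16 that were under 1 CPM in every Con library summed to 17703 CPM there and to 0.638 to 26.0 CPM in the other 11 libraries. DSS 2 and DSS+UA 3 held small intestinal transcripts: of 13 enterocyte markers, the 5 that were under 1 CPM in every Con library summed to 1354 and 303 CPM, against 36.8 CPM in UA+DSS 2 and at most 5.16 CPM elsewhere. The same 2 libraries held Paneth cell transcripts (11 such genes, 23.4 and 27.9 CPM, against at most 0.250 CPM elsewhere), and in each of the other libraries 9 or more of the 14 Paneth cell markers were at 0 counts. DSS 2 also had the highest summed level of 12 neutrophil markers, 19024 CPM against 943 and 1066 CPM in DSS 1 and DSS 3. A position score, the mean log2 CPM of 5 Hox genes expressed toward the rectum minus that of 6 expressed toward the caecum, was 5.53 in Con 1 but -3.03 and -1.83 in Con 2 and Con 3. It was 0.37 to 3.10 in DSS, -5.70 to -4.16 in UA+DSS and 4.11 to 5.06 in DSS+UA. Summed markers of other cell types also differed in range between the groups. Neutrophil markers summed to 10.5 to 115 CPM in Con, 31.4 to 127 CPM in UA+DSS and 411 to 1043 CPM in DSS+UA. Of these 12 genes, 10 were under 1 CPM in every Con library. These 10 summed to 0.856 to 1.498 CPM in Con and 12.5 to 69.3 CPM in UA+DSS, without overlap. They summed to 622 to 18064 CPM in DSS and 122 to 696 CPM in DSS+UA. Markers of smooth muscle (10 genes) summed to 1344 to 4223 CPM in Con, 879 to 1771 CPM in DSS, 1499 to 2942 CPM in UA+DSS and 575 to 1007 CPM in DSS+UA. Markers of B cells (8 genes) summed to 111 CPM in Con 1 but at most 20.2 CPM in Con 2 and Con 3, and to 70.8 to 351 CPM in DSS, 17.8 to 31.6 CPM in UA+DSS and 60.6 to 251 CPM in DSS+UA. Their part in the results was not tested. The values and counts that moved most with the libraries that stood apart are also given without them.

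Reg1, Reg3a, Reg3b and Reg3g lie in a cluster of 6 Reg genes, with Reg2 and Reg3d, that spans 98.2 kb of chromosome 6 in GRCm38. Reg3b (ENSMUSG00000071356) is at chr6:78370657-78373466, Reg3a (ENSMUSG00000079516) at chr6:78380709-78383827 and Reg1 (ENSMUSG00000059654) at chr6:78422711-78428667, all on the + strand. Reg3g (ENSMUSG00000030017) is at chr6:78466269-78468872 on the - strand. Reg4 (ENSMUSG00000027876) is on chromosome 3 at chr3:98222156-98236748 and Retnlb (ENSMUSG00000022650) on chromosome 16 at chr16:48816856-48818892, both on the + strand. All are annotated as protein-coding and none overlaps another gene. Of the stretches of 50 bases in their exons, 3.65% in Reg1 and none in the other members occur in a further annotated gene, so few reads could be shared with a copy.

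Reg3b and Reg3g had the most alike promoters among the members. The promoters of 5 members were found in the RefSeq table of GRCm38.p6, and Retnlb had no entry in it. In the window from 175 to 26 bases before the RefSeq start, Reg3b and Reg3g were identical at 93 of 152 aligned positions (61.2%). The other 9 pairs were identical at 42.9% to 50.9%. Reg1 and Reg3a were identical at 50.3%. Their levels had the highest Pearson correlation among the members, while Reg3b and Reg3g had the highest Spearman correlation. The motif TTCNNNGAA, a STAT site that reads the same on both strands, was searched from 250 bases before to 50 after each start. It occurred in 1 of the 5 promoters, that of Reg3b, at 129 bases before the RefSeq start. Among all 32851 promoters it occurred in 2726 (8.30%). Both windows are shown, at chr6:78370710-78370859 on the + strand for Reg3b and chr6:78468900-78469049 on the - strand for Reg3g. For Reg3b the RefSeq start lies downstream of the start of the gene span given above (78370657). Its window and motif are thus inside that span. The promoter of Reg1 (chr6:78425733-78426032) is also inside the span given for Reg1. Capitals mark the motif in Reg3b and the 9 bases aligned with it in Reg3g, of which 6 are identical. A match is a description of the letters and not of binding.
Reg3b: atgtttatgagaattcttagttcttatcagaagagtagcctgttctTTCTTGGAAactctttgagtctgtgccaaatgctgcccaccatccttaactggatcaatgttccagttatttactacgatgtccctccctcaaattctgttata
Reg3g: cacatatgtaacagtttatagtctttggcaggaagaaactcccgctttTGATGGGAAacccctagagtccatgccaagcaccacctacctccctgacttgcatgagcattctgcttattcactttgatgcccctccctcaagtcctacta

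Across the 6 genes, only Reg1 and Reg3a were called, both as higher in DSS than in Con. That is 2 of 6 members in a comparison where 26.5% of tested genes were called (13.9% as raised). No member was called in UA+DSS against DSS, where 18.7% of genes were called and 3 members had an unadjusted p under 0.05. None passed in DSS+UA against DSS (7.54% of genes, with 0 members at an unadjusted p under 0.05), in DSS+UA against Con (18.1%, 1 member) or in UA+DSS against DSS+UA (16.8%, 2 members). In UA+DSS against Con no member was called and 2 had an unadjusted p under 0.05, but there a single gene in all (0.00566%) passed. DESeq2 called 3 members in DSS against Con (32.3% of all genes by that tool) and 1 in DSS+UA against Con (26.4%). For UA+DSS it called 2 members each when compared with DSS (25.5% of genes), with DSS+UA (24.6%) and with Con (2.12%). It called 0 when DSS+UA was compared with DSS (17.6%). Groups did not overlap for 0 members in UA+DSS against DSS and in DSS+UA against Con, where 42.8% and 38.9% of tested genes did not overlap. All 6 members passed the filter on low counts. Reg3a had 10 or more counts in only 4 libraries and Reg1 in 6, none of them in Con, whereas Reg3b, Reg3g and Retnlb had them in 11 and Reg4 in 12.

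**Figure D1:**
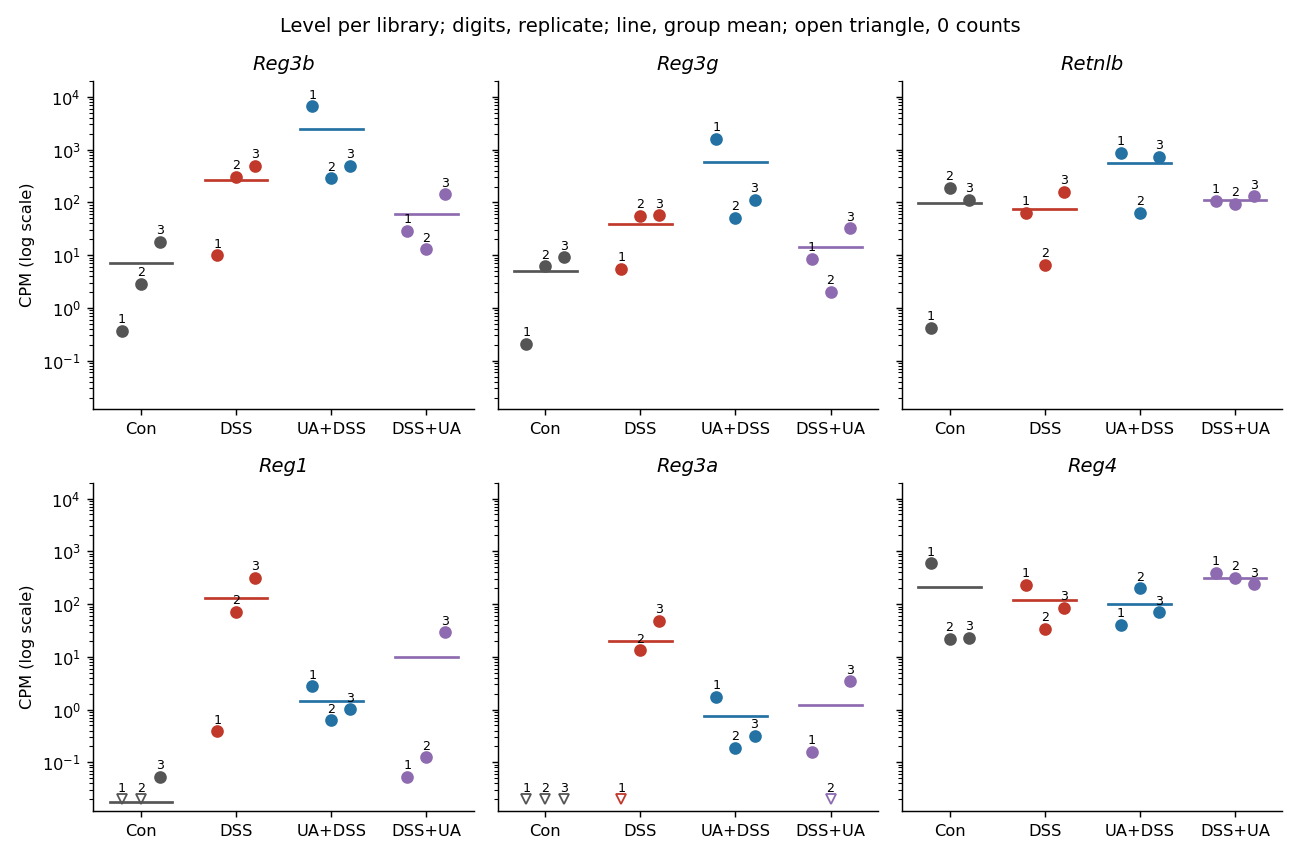
CPM (log scale) of each of the 6 genes in each of the 12 libraries, by group; digits are replicate numbers, lines are group means of 3 libraries and open triangles are libraries at 0 counts. Reg3b and Reg3g were highest in UA+DSS 1, and Reg1 and Reg3a in DSS 3, DSS 2 and DSS+UA 3.

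Reg3b, which encodes a lectin that kills bacteria at the mucosa, had its highest group mean in UA+DSS. Its levels were 0.362, 2.88 and 18.0 CPM in Con 1, 2 and 3 and 9.91, 302 and 499.9 CPM in DSS 1, 2 and 3. They were 6657, 286 and 492 CPM in UA+DSS 1, 2 and 3. In DSS+UA they were 28.6, 12.8 and 141 CPM. UA+DSS 1 stood far above the other libraries, and DSS 1 lay within the range of Con. The group means were 2478 ± 3620 CPM in UA+DSS, 271 ± 247 in DSS, 60.9 ± 70.0 in DSS+UA and 7.09 ± 9.55 in Con (SD, n = 3 each), and neighbours in this order overlapped in every case. Without UA+DSS 1 the UA+DSS mean was 389 CPM.

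Every UA+DSS library was above every Con and every DSS+UA library for Reg3b. Of all tested genes, 20.6% did not overlap between UA+DSS and Con (9.62% as higher in UA+DSS) and 45.3% between UA+DSS and DSS+UA. Against Con the log2 fold change was 8.45 (SE 2.17, edgeR adjusted p = 0.241), and against DSS+UA it was 5.35 (SE 1.88, adjusted p = 0.0748). Neither passed 0.05, though by DESeq2 the adjusted p were 5.4e-05 and 0.0055, the lowest of ranges over the alternatives that reached 0.9996 and 0.959. DSS against Con gave 5.25 (SE 1.89, adjusted p = 0.0626). Without DSS 1 that adjusted p was 0.0498, within 0.0045 to 0.906 over the alternatives, and without DSS 2, DSS 3 and DSS+UA 3 the log2 fold change was 0.50. Against DSS, the UA+DSS value was 3.19 (SE 1.70, adjusted p = 0.211) and the DSS+UA value -2.15 (SE 1.64, adjusted p = 0.402). These 2 comparisons share the DSS libraries. Without UA+DSS 1 the UA+DSS value was 0.52 against DSS (adjusted p = 0.857), 2.67 against DSS+UA (0.294) and 5.78 against Con (0.477). DSS+UA against Con gave 3.10 (SE 1.72, adjusted p = 0.218).

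Reg3g, which encodes a lectin that binds peptidoglycan of Gram-positive bacteria, followed the order of Reg3b. Its levels were 0.207, 6.10 and 9.04 CPM in Con, 5.44, 55.0 and 56.7 CPM in DSS, while UA+DSS had 1579, 50.6 and 113 CPM, for replicates 1, 2 and 3 of each. In DSS+UA they were 8.43, 2.04 and 32.3 CPM. UA+DSS 1 was again the highest library and Con 1 the lowest. UA+DSS did not overlap Con or DSS+UA, and it overlapped DSS because UA+DSS 2 lay below DSS 2 and DSS 3. The log2 fold change was 6.83 (SE 1.83, edgeR adjusted p = 0.246) in UA+DSS against Con, 5.35 (SE 1.70, adjusted p = 0.0551) against DSS+UA and 3.89 (SE 1.59, adjusted p = 0.110) against DSS. By DESeq2 these 3 were called, at adjusted p of 0.0010, 0.0030 and 0.037, and the highest values over the alternatives were 0.9996, 0.969 and 0.962. Without UA+DSS 1 the UA+DSS mean went from 581 to 81.6 CPM, and the 3 log2 fold changes to 4.00, 2.52 and 1.07 (adjusted p of 0.510, 0.248 and 0.628). DSS against Con gave 2.93 (SE 1.55, adjusted p = 0.180), DSS+UA against DSS -1.45 (SE 1.46, adjusted p = 0.533) and DSS+UA against Con 1.48 (SE 1.49, adjusted p = 0.499).

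The Hox position score differed between some of the groups that differed in Reg3b and Reg3g. All UA+DSS libraries had scores under -4 and all DSS+UA libraries over 4, with no overlap. The UA+DSS scores also did not overlap those of DSS or Con, and the DSS+UA scores did not overlap those of DSS. In these comparisons the position score and the treatment cannot be told apart. With the score as a covariate the log2 fold changes in UA+DSS against DSS+UA were -0.74 for Reg3b and -0.52 for Reg3g, and in UA+DSS against DSS -0.36 and 0.31. In DSS against Con, Reg3b went from 5.25 to 6.48 with the covariate (adjusted p = 0.0352). Within DSS the scores fell from DSS 1 to DSS 3 (3.10, 1.35 and 0.37) while both genes rose (Reg3b at 9.91, 302 and 499.9 CPM). In the other groups the order of the scores was neither that of the genes nor its reverse. Con 1, with the highest score of all libraries, had the lowest Reg3b and Reg3g, but DSS+UA 3, with the highest score of its group (5.06), had the most Reg3b (141 CPM), and UA+DSS 2, with the lowest score of all (-5.70), had the least Reg3b of its group (286 CPM). The part of position in these results was not otherwise tested.

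The levels of Reg3b and Reg3g in the 12 libraries had a Pearson correlation of 0.96 and a Spearman correlation of 0.96 on log2 CPM. Among the 15 pairs of members these were the second highest Pearson and the highest Spearman value. The points share group and position, so this is a description. Per kilobase of the longest coding transcript, Reg3b was 0.465 times Reg3g in Con 2, 1.72 to 1.96 times in Con 1, Con 3 and DSS 1, and 3.34 to 8.68 times in the other 8 libraries.

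**Figure D2:**
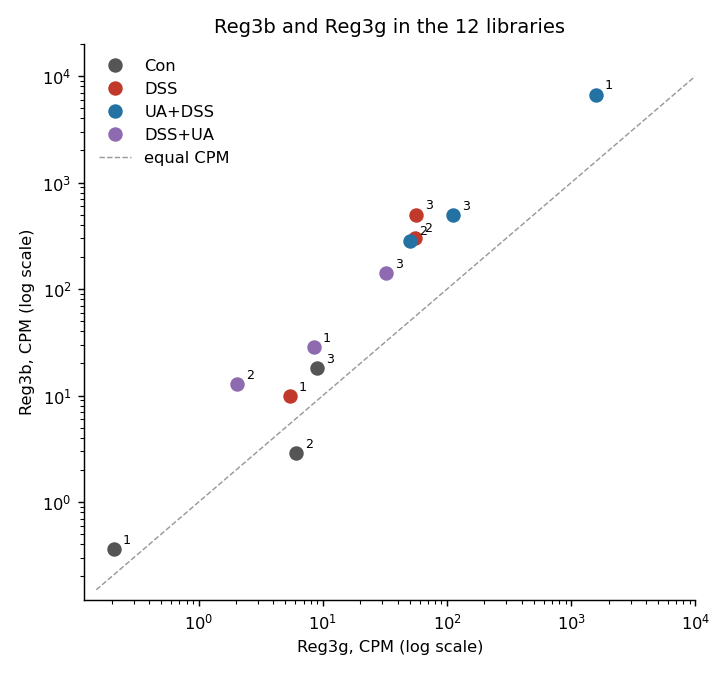
CPM of Reg3b (vertical) and Reg3g (horizontal), both on log scales, in the 12 libraries coloured by group, with replicate numbers; the dashed line marks equal CPM. All libraries but Con 2 lie above the line, from Con 1 at the lowest levels to UA+DSS 1 at 6657 and 1579 CPM.

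Reg1 encodes a secreted protein abundant in pancreatic juice, also called lithostathine. It had 0, 0 and 1 counts in Con 1, 2 and 3 and 8, 1434 and 5961 counts in DSS 1, 2 and 3. In UA+DSS 1, 2 and 3 it had 43, 10 and 19 counts, and in DSS+UA 1, 2 and 3 it had 1, 2 and 528. In CPM this is 0.385, 71.8 and 315 in DSS, 0.625 to 2.76 in UA+DSS and 0.0527, 0.124 and 29.3 in DSS+UA. The DSS group did not overlap Con, but DSS 1 lay below every UA+DSS library. Reg1 was 1 of the 41.3% of tested genes whose DSS and Con groups did not overlap, and the only member among them.

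Reg1 rose in DSS against Con, with a fitted log2 fold change of 12.35 (SE 3.33, edgeR adjusted p = 0.0222). Because Con held 1 count in all, the ratio of counts was 6955 with a 95% interval of 1248 to 274732, which covers counting error only. The ratio was 1984 without DSS 3, 8426 without DSS 2 and 21.6 (2.89 to 957) with DSS 1 alone. Without DSS 2, DSS 3 and DSS+UA 3 the log2 fold change was 3.99 (adjusted p = 0.117). The call was kept without DSS 2 (12.64, adjusted p = 0.0420) and without DSS 3 (10.51, adjusted p = 0.0429). It was lost without Con 1, Con 2 or Con 3 in turn, with log2 fold changes of 11.89, 11.93 and 14.20 and adjusted p of 0.0697, 0.0806 and 0.0810, and over all alternatives the adjusted p ranged from 3.4e-06 to 0.330. UA+DSS against DSS gave -6.47 (SE 2.23, adjusted p = 0.0667), which passed without DSS 1 (adjusted p = 0.0452) and by DESeq2 (0.0131), within a range of 0.0131 to 0.454 over the alternatives. It was -4.63 without DSS 3, and 1.89 without DSS 2, DSS 3 and DSS+UA 3. DSS+UA against DSS gave -3.71 (SE 1.91, adjusted p = 0.219), which was -10.43 without DSS+UA 3 (adjusted p = 0.106) and -1.86 without DSS 3 (0.557).

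All UA+DSS libraries held more Reg1 than any Con library, 72 counts against 1, a ratio of 80.1 (95% interval 13.9 to 3207). The edgeR adjusted p was 0.542. In DSS+UA, 528 of the 531 counts came from DSS+UA 3, and without that library the log2 fold change against Con went from 8.64 (adjusted p = 0.0938) to 1.92. By DESeq2, DSS+UA against Con passed with all libraries (adjusted p = 0.0021), and the highest adjusted p over the alternatives was 0.820.

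Reg3a, another lectin gene of this family, was at 0 counts in all Con libraries and in DSS 1 and DSS+UA 2. It had 265 counts in DSS 2 and 907 in DSS 3, 62 in DSS+UA 3 and 3 in DSS+UA 1. In UA+DSS 1, 2 and 3 it had 27, 3 and 6 counts. The highest levels were 47.9 CPM in DSS 3, 13.3 CPM in DSS 2, 3.44 CPM in DSS+UA 3 and 1.73 CPM in UA+DSS 1, and the rest were at most 0.319 CPM.

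Reg3a rose in DSS against Con (edgeR adjusted p = 0.0395). With a floor of 3 counts over the Con group, it was at least 367-fold higher, at least 122-fold without DSS 3 and at least 427-fold without DSS 2. The call was lost without any 1 of Con 1, Con 2, Con 3, DSS 2 and DSS 3 (adjusted p of 0.0764 to 0.0975, within 9.3e-04 to 0.282 over the alternatives), and with DSS 1 as the only DSS library both groups were at 0. UA+DSS was at least 13.3-fold higher than Con (adjusted p = 0.513), and its libraries did not overlap those of Con. DSS+UA was at least 22.8-fold higher than Con (adjusted p = 0.195). Against DSS, the log2 fold change was -4.78 (SE 2.07, adjusted p = 0.141) in UA+DSS and -4.07 (SE 1.98, adjusted p = 0.206) in DSS+UA. Without DSS 3 these were -3.16 and -2.44, and the DSS+UA value was -7.80 without DSS+UA 3.

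The 3 libraries with the most Reg1 and Reg3a were those with the highest levels of transcripts of other organs. The UA+DSS libraries had 10 to 43 counts of Reg1. Their acinar sums for the 16 genes were 0.638 to 2.12 CPM, within or below the 1.28 to 2.99 CPM of Con. The Paneth cell genes summed to at most 0.250 CPM there. The 5 small intestinal genes were higher in every UA+DSS library than in Con, at 3.21 to 36.8 CPM against 0.259 to 0.535 CPM. DSS 3 had the acinar transcripts, with Ctrb1, a chymotrypsinogen gene, at 4280 CPM, Cela2a, an elastase gene, at 2100 CPM and Pnlip, the pancreatic lipase gene, at 2063 CPM. In the other 11 libraries these 3 genes were at most 5.48, 0.790 and 1.47 CPM. DSS 2 and DSS+UA 3 had the small intestinal transcripts, with Apoa1, an apolipoprotein gene of enterocytes, at 785 and 166 CPM against at most 3.62 CPM elsewhere. Acinar markers were low in DSS 2, at 5.36 CPM for the 16 genes, and Apoa1 was at 0.158 CPM in DSS 3. Reg1 per kilobase was 4.94, 6.00 and 7.77 times Reg3a in DSS 2, DSS 3 and DSS+UA 3, against 1.45 and 2.89 times in UA+DSS 1 and UA+DSS 3. The whole acinar list of 24 genes, 5 of which were at 1 CPM or more in every Con library, summed to 463 to 1330 CPM in Con, 45.5 to 23168 CPM in DSS, 112 to 173 CPM in UA+DSS and 135 to 294 CPM in DSS+UA. The whole enterocyte list of 13 summed to 268 to 414, 144 to 2876, 468 to 926 and 162 to 827 CPM in these groups, and the Paneth cell list of 14 to 2.77 to 15.4, 5.34 to 71.9, 11.1 to 13.9 and 9.32 to 65.5 CPM. The part of these transcripts in the Reg1 and Reg3a results was not tested beyond leaving the libraries out.

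The relatives Reg2 and Reg3d, the remaining genes of the cluster, did not pass the filter on low counts. Reg2 had 852 CPM in DSS 3 and at most 0.263 CPM in the other 11 libraries, and Reg3d had 40.0 CPM in DSS 3 and at most 0.834 CPM elsewhere. Both were thus high in the library with acinar transcripts alone, whereas Reg1 and Reg3a were also high in DSS 2 and DSS+UA 3. Other annotated genes share 11.3% of the Reg2 stretches of 50 bases, so its counts are uncertain.

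**Figure D3:**
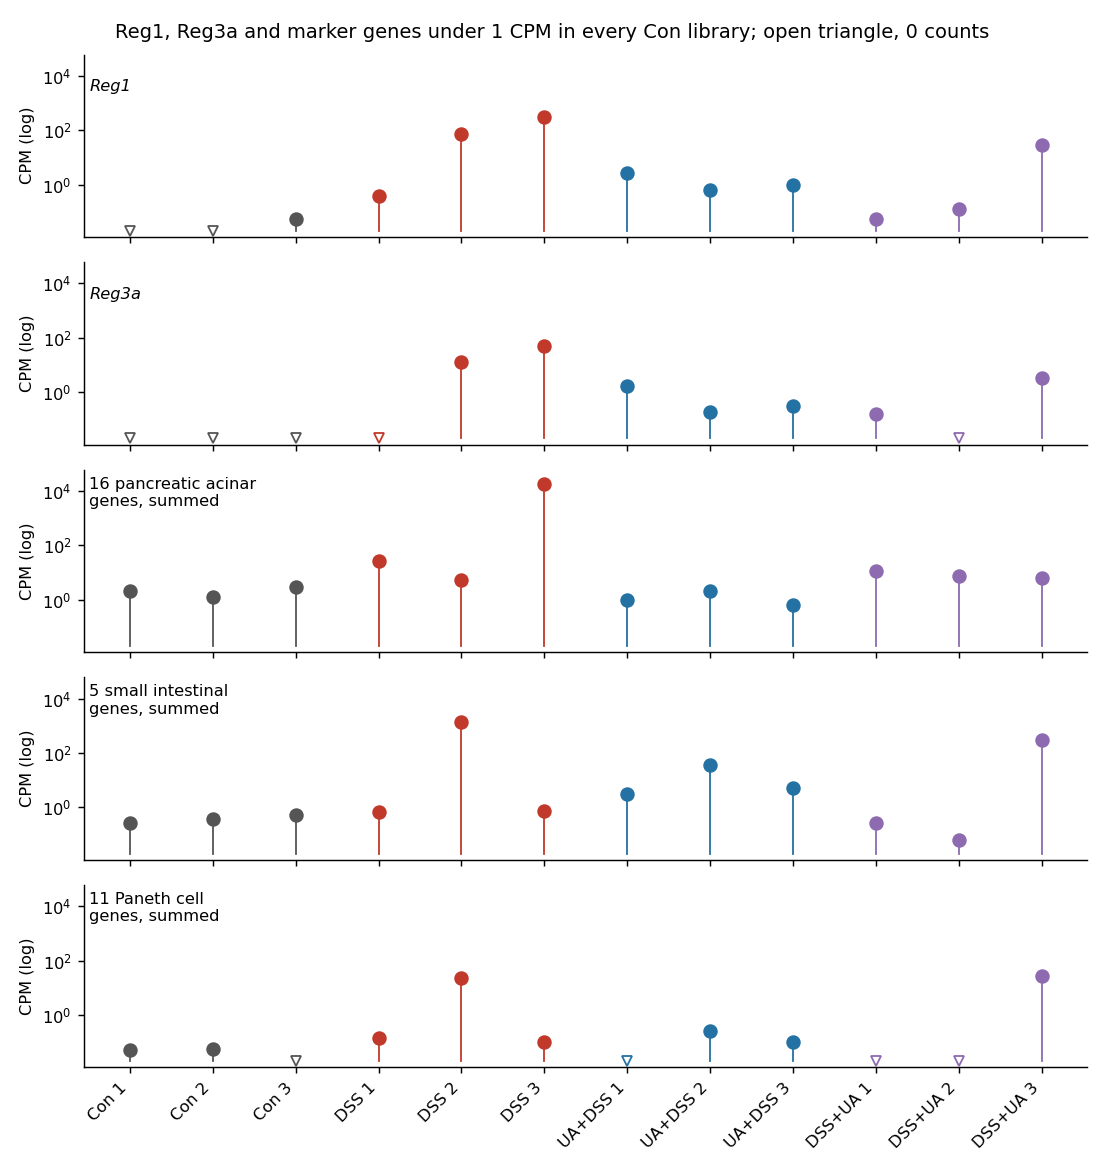
CPM (log scale) of Reg1 and Reg3a and the summed CPM of the 16 acinar, 5 small intestinal and 11 Paneth cell markers that were under 1 CPM in every Con library, in the 12 libraries; open triangles are libraries at 0 counts. Reg1 and Reg3a were highest in DSS 3, where the acinar sum was 17703 CPM, and in DSS 2 and DSS+UA 3, where the small intestinal sum was 1354 and 303 CPM.

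Reg4 was expressed in all 12 libraries and no comparison was called. Its levels were 590, 21.9 and 23.2 CPM in Con 1, 2 and 3, 235, 34.2 and 84.6 CPM in DSS, while UA+DSS had 40.0, 198 and 69.5 CPM. In DSS+UA they were 387, 316 and 235 CPM. Con 1 stood far above Con 2 and Con 3, and DSS+UA had the narrowest range. The means were 313 ± 76.1 CPM in DSS+UA, 212 ± 328 in Con, 118 ± 104 in DSS and 103 ± 84.0 in UA+DSS (SD, n = 3), and each neighbouring pair in this order overlapped.

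All DSS+UA libraries had more Reg4 than any UA+DSS library. The lowest DSS+UA and the highest DSS library were nearly level, at 235.4 and 234.95 CPM, and they overlapped when levels were scaled by library size alone (228.9 and 255.1 CPM) or by upper quartiles. The log2 fold change was 1.41 (SE 1.18, edgeR adjusted p = 0.449) against DSS, and in UA+DSS against DSS+UA it was -1.61 (SE 1.19, adjusted p = 0.365). With TMM scaling, groups that did not overlap made up 34.7% and 45.3% of tested genes in these comparisons. DSS+UA against Con was 0.56 (SE 1.16, adjusted p = 0.753), and without Con 1 it was 3.80 (adjusted p = 0.0251, within 0.0251 to 0.990 over the alternatives). Without Con 1, DSS against Con went from -0.84 (SE 1.17, adjusted p = 0.614) to 2.38 and UA+DSS against Con from -1.05 (SE 1.17, adjusted p = 0.719) to 2.18. UA+DSS against DSS was -0.20 (SE 1.16, adjusted p = 0.925).

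Retnlb had its highest levels in UA+DSS and its lowest in Con 1. Its levels were 0.414, 186 and 112 CPM in Con 1, 2 and 3, 64.1, 6.56 and 158 CPM in DSS, while UA+DSS had 876, 62.6 and 721 CPM. In DSS+UA they were 108, 94.5 and 130 CPM. UA+DSS 1 and UA+DSS 3 were above the other 10 libraries, but UA+DSS 2 was lower than 7 of the 9 libraries outside its group. The means were 553 ± 432 CPM in UA+DSS, 111 ± 17.8 in DSS+UA, 99.4 ± 93.5 in Con and 76.3 ± 76.6 in DSS (SD, n = 3), all with overlap. UA+DSS against DSS gave a log2 fold change of 2.86 (edgeR adjusted p = 0.211), against Con 2.48 (adjusted p = 0.512) and against DSS+UA 2.32 (adjusted p = 0.298), with SE between 1.49 and 1.52. DSS against Con was -0.38 (SE 1.42, adjusted p = 0.861), DSS+UA against DSS 0.54 (SE 1.42, adjusted p = 0.828) and DSS+UA against Con 0.16 (SE 1.42, adjusted p = 0.947).

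The position score moved with Reg4 and Retnlb within the Con group. Con 1, with a score of 5.53, had 590 CPM of Reg4 and 0.414 CPM of Retnlb. Con 2 and Con 3, with scores of -3.03 and -1.83, had at most 23.2 CPM of Reg4 and at least 112 CPM of Retnlb. In DSS+UA, where the scores were 4.11 to 5.06, Reg4 was high as in Con 1, but Retnlb was 94.5 to 130 CPM. Within DSS+UA, the highest score (DSS+UA 3) went with the least Reg4 (235 CPM) and the most Retnlb (130 CPM). Within UA+DSS, the lowest score (UA+DSS 2, -5.70) went with the most Reg4 (198 CPM) and the least Retnlb (62.6 CPM). Within DSS, the highest score (DSS 1, 3.10) went with the most Reg4 (235 CPM), and Retnlb was lowest in DSS 2 (6.56 CPM). With the score as a covariate, Reg4 in UA+DSS against DSS had a log2 fold change of 3.69 and Retnlb -2.25, with adjusted p of 0.144 and 0.569, the lowest over the alternatives for Reg4 and the highest for Retnlb. The part of position in these results was not tested further.

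**Figure D4:**
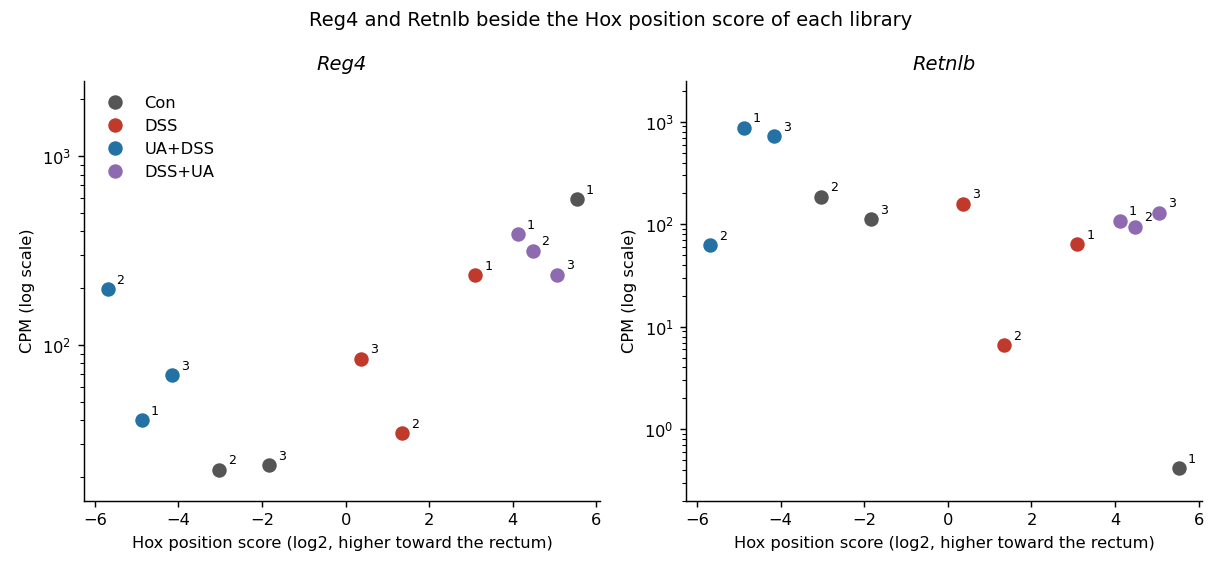
CPM (log scale) of Reg4 and Retnlb against the Hox position score of each library, coloured by group with replicate numbers. The 4 libraries with a score over 4 had 235 to 590 CPM of Reg4, and Con 1 at 5.53 had the lowest Retnlb, 0.414 CPM.

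The order of the members changed between groups. On levels per kilobase of the longest coding transcript, Reg4 and Retnlb led in Con (means of 207 and 143 CPM per kb) and in DSS+UA (306 and 159 CPM per kb). Reg3b led in DSS (346 CPM per kb), ahead of Reg1 (143 CPM per kb), and in UA+DSS (3165 CPM per kb), ahead of Retnlb (795 CPM per kb) and Reg3g (753 CPM per kb). Reg3a was the lowest of the 6 in every group. These are orders of group means, and single libraries departed from them. Per kilobase, Reg4 was the highest member in Con 1 and DSS 1, and Retnlb in Con 2, Con 3 and UA+DSS 3. Without Con 1 the Con mean of Reg4 went from 212 to 22.6 CPM. Together the members took 0.917% of all counts in UA+DSS 1 and 0.0172% to 0.139% in the other 11 libraries.

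As a description beside all tested genes, the median log2 fold change of the 6 was 4.09 in DSS against Con and 0.81 in UA+DSS against DSS+UA. Compared with DSS it was 1.33 for UA+DSS and -1.80 for DSS+UA, while that of all tested genes was between -0.03 and 0.02 in these. In UA+DSS against Con it was 6.32, or 4.81 with Reg3a at its bound, and in DSS+UA against Con 2.29. Of the 6, 4 did not overlap between UA+DSS and Con, all higher in UA+DSS, beside 20.6% of tested genes (9.62% as higher), and for Reg1 and Reg3a among them Con held 1 and 0 counts.

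**Figure D5:**
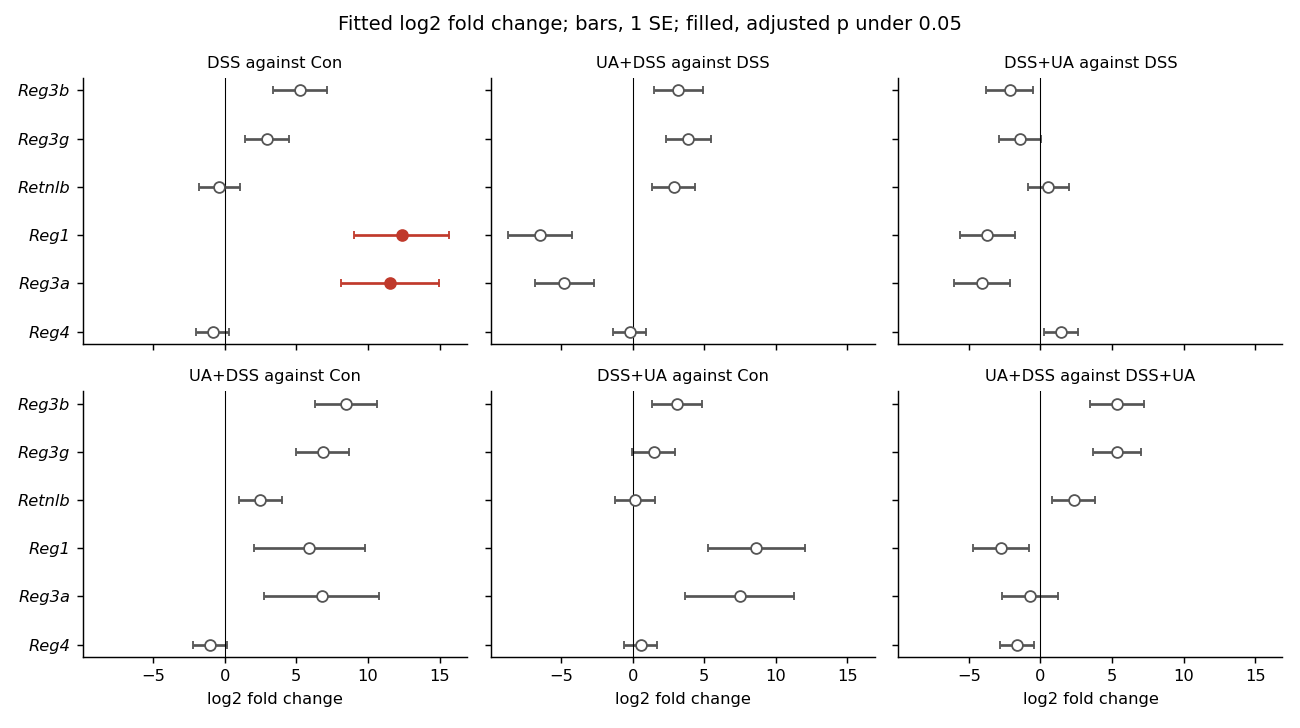
Fitted log2 fold change (horizontal) of the 6 genes in the 6 comparisons, with bars of 1 SE; filled points have an edgeR adjusted p under 0.05. Only Reg1 and Reg3a in DSS against Con are filled, at 12.35 and 11.54, and values of Reg3a against Con depend on the prior count because Con was at 0.

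The resistin-like relatives included a gene with its own pattern. Retnlg, which is expressed by neutrophils and is counted among their markers here, rose in DSS against Con (log2 fold change 12.81, SE 2.24, edgeR adjusted p = 0.00429) and fell by 7.78 on the log2 scale in UA+DSS against DSS (SE 1.69, adjusted p = 0.0159). Its levels were 50.3, 1566 and 66.0 CPM in DSS 1, 2 and 3 and at most 5.32 CPM in UA+DSS. Without DSS 2 the values were 9.54 (adjusted p = 0.00509) and -4.51 (0.0339), and without DSS 2, DSS 3 and DSS+UA 3 the fall was not called (adjusted p = 0.128). It rose in DSS+UA against Con as well (8.96, SE 2.09, adjusted p = 0.0186), though not without DSS+UA 3 (0.0501). Retn and Retnla, genes of adipose tissue and macrophages, stayed under 6 CPM in all libraries, and Retnla fell by 3.73 on the log2 scale in DSS+UA against Con (SE 1.05, adjusted p = 0.0334), though not without Con 1 (0.0614) or DSS+UA 3 (0.116). Of the 3 relatives tested, 1 was called in DSS against Con (26.5% of all genes), 1 in UA+DSS against DSS (18.7%), none in DSS+UA compared with DSS (7.54%) and 2 in DSS+UA against Con (18.1%).

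Many genes of a list of cytokines, their receptors and signal genes changed with DSS. Of 26 tested genes of a list of 29, 15 rose and 1 fell in DSS against Con, with a median log2 fold change of 1.76, where 26.5% of all genes were called. In UA+DSS against DSS 11 fell and 1 rose (median -1.29, 18.7% of all genes called), and in DSS+UA compared with DSS 5 fell and 1 rose (median -0.97, 7.54%). None of the 26 was called in UA+DSS against Con, where 1 gene in all was. Without DSS 2, DSS 3 and DSS+UA 3, 10 of 27 rose in DSS against Con (5.23% of all genes called), 2 fell in UA+DSS against DSS (0.914%) and none was called in DSS+UA compared with DSS (0.0470%). The last count was also 0 without DSS+UA 3 alone, where 0.137% of all genes were called. Socs3, an inhibitor induced by STAT3, was at 14.6 ± 4.64 CPM in Con, 451 ± 446 in DSS, 53.2 ± 27.3 in UA+DSS and 105 ± 9.31 in DSS+UA (SD, n = 3). It rose in DSS against Con (log2 fold change 4.95, SE 0.70, edgeR adjusted p = 0.00242) and fell by 3.08 in UA+DSS against DSS (SE 0.64, adjusted p = 0.0147). Stat3 itself rose from 107 ± 9.87 CPM in Con to 303 ± 43.6 in DSS (adjusted p = 8.7e-04) and fell to 173 ± 16.4 in UA+DSS (adjusted p = 0.0113). Without DSS 2, where Socs3 was at 965 CPM, its values were 3.73 (adjusted p = 7.5e-04) and -1.87 (0.0191). Without DSS 2, DSS 3 and DSS+UA 3 the rises of both genes kept their calls, and the falls did not (adjusted p of 0.0772 for Socs3 and 0.137 for Stat3). Reg3b and Reg3g had their highest levels in UA+DSS 1. Without that library their log2 fold changes in UA+DSS against DSS were 0.52 and 1.07, and neither was called. No difference between these genes and Socs3 or Stat3 was tested.

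Other cytokine genes gave the following levels. Il22, the cytokine that acts on epithelium through STAT3, was at 0 counts in Con and at 9.67, 1.05 and 0.106 CPM in DSS 1, 2 and 3 (edgeR adjusted p = 0.0334 against Con). In UA+DSS it had 0.642 CPM in UA+DSS 1 and 0 counts in UA+DSS 2 and 3, and in DSS+UA it had 0.527, 1.24 and 0.832 CPM. The call of Il22 was lost without Con 1 (adjusted p = 0.0715). Its relation to Reg3b and Reg3g was not tested. Il6 was at most 0.0555 CPM in Con and 7.12, 10.4 and 26.6 CPM in DSS, and it rose (adjusted p = 0.00432). Il11 and Il33, a cytokine of the IL-6 family and an alarmin, rose in DSS against Con by 7.48 (SE 0.82, adjusted p = 0.00117) and 4.03 (SE 0.50, adjusted p = 0.00135). In UA+DSS against DSS, Il11 fell by 4.60 (SE 0.68, adjusted p = 0.00777) and Il33 fell by 3.14 (SE 0.48, adjusted p = 0.0080), and without DSS 2, DSS 3 and DSS+UA 3 the adjusted p were 0.0333 and 0.0619. Il17a had an adjusted p of 0.0689 in DSS against Con. Il13, which drives Retnlb, did not pass the filter and was at most 0.111 CPM. Il4 (adjusted p = 0.878), the receptor gene Il22ra1 (0.331) and Extl3, which encodes a proposed receptor of Reg proteins (0.192), were not called.

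Other antimicrobial genes of the epithelium gave mixed counts. Of 26 tested genes of a list of 30, 8 rose and 1 fell in DSS against Con (26.5% of all genes called), 1 rose and 7 fell in UA+DSS against DSS (18.7%), and none was called in DSS+UA compared with DSS (7.54%). Without DSS 2 the counts in the first 2 comparisons were 6 and 1 (19.2% of all genes) and 1 and 4 (10.02% of all genes). Slpi, a protease inhibitor with antibacterial action, was at 7.82 to 9.10 CPM in Con, 77.2 to 569 CPM in DSS, 4.50 to 12.0 CPM in UA+DSS and 208 to 328 CPM in DSS+UA, and it rose in DSS against Con (log2 fold change 5.24, SE 0.67, edgeR adjusted p = 0.00179) and fell by 5.13 in UA+DSS against DSS (SE 0.67, adjusted p = 0.00717). S100a9 and Saa3 also rose (adjusted p of 0.00269 and 0.00279) and fell (0.0141 and 0.0384) in these comparisons, with S100a9 also a neutrophil marker. Both were highest in DSS 2, at 7510 and 3281 CPM. Without DSS 2 both rises and the fall of S100a9 kept their calls (adjusted p of 0.00153, 0.00395 and 0.0225), while the fall of Saa3 did not (0.151). Ang4 (adjusted p = 0.762 and 0.519), Lypd8 (0.127 and 0.0562), Zg16 (0.950 and 0.479) and Lyz1 (0.293 and 0.0964) were called in neither.

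Markers of goblet and deep crypt secretory cells, the cells known to make Retnlb and Reg4, were called about as often as all genes in DSS against Con. Of 15 tested, 3 fell and 1 rose in DSS against Con (26.5% of all genes called), 3 rose in UA+DSS against DSS (18.7%) and none was called in DSS+UA compared with DSS (7.54%). Atoh1, the transcription factor of secretory cells, was at 84.0 ± 11.5 CPM in Con, 20.6 ± 11.4 in DSS, 79.3 ± 11.4 in UA+DSS and 48.3 ± 9.35 in DSS+UA (SD, n = 3), and it fell by 2.03 on the log2 scale in DSS against Con (SE 0.39, edgeR adjusted p = 0.00536). Kit, a marker of deep crypt secretory cells, fell by 1.21 (SE 0.34, adjusted p = 0.0239). Muc2, the main gel-forming mucin, fell by 2.58 (SE 0.83, adjusted p = 0.0412), and Cd44 rose by 1.82 (SE 0.52, adjusted p = 0.0280). Muc2 was at 741 CPM in Con 1, within the 147 to 1431 CPM of DSS, and at 6633 and 5869 CPM in Con 2 and Con 3. The epithelial marker Epcam fell by 0.93 (SE 0.26, adjusted p = 0.0234). Without DSS 2 the calls of Muc2, Cd44 and Epcam were lost (adjusted p of 0.0742, 0.0519 and 0.0732) and those of Atoh1 and Kit were kept (0.00141 and 0.0309). Of the members, Reg4 and Retnlb were called in no comparison. Kit was lowest in DSS+UA, at 15.6 to 19.5 CPM, where Reg4 had its highest group mean. Cd44 was highest in DSS 2, at 568 CPM, the library with the highest summed neutrophil markers. Which cells gave the Kit and Cd44 transcripts was not tested.

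The genes whose log2 CPM followed each member most closely over the 12 libraries were found among 13719 tested genes whose mean log2 CPM was 1 or more. They were Acox2, a peroxisomal oxidase gene, for Reg3g (Pearson r = 0.95) and for Reg3b (0.86), followed by Otud7b for Reg3g (0.89) and Fry for Reg3b (0.86). Mmp13 and Mmp10, which encode matrix metalloproteinases, came first and second for Reg1 (0.90 and 0.89), and for Reg3a Mmp13 (0.88) and Mctp2 (0.87) did. Reg1 and Reg3a had a Pearson correlation of 0.97 with each other, the highest among the pairs of members. Their Spearman correlation was 0.90, below that of Reg3b and Reg3g (0.96). Kcnk6, a potassium channel gene, was first for Retnlb (0.95) and was followed by Blmh (0.95). For Reg4 the first 3 were Gm13408, Impdh2-ps and Rps10-ps1 (0.94, 0.93 and 0.93), of which the last 2 are named as pseudogenes, whose reads may come from their parent genes. The libraries share group, position and the transcripts of other organs, so these values are descriptions.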

How the data were processed

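RNA was sequenced from the colon of 12 mice, 3 in each of 4 groups (TruSeq libraries, HiSeq-2500). The deposited values are raw read counts per gene, 1 table per library, which the authors made from reads aligned to GRCm38. The methods say that the counts were calculated with HISAT2, an aligner, and the submitters' processing notes also name FastQC and Cuffdiff. Tool versions, counting settings, strandedness and the annotation release were not given in the sources used here. The labels name Trizol and the methods RNeasy for RNA extraction.

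Genes were filtered with filterByExpr, scaled by TMM (factors 0.871 to 1.09) and tested with edgeR 4.0.16 (robust quasi-likelihood fit of all 12 libraries, R 4.3.3), leaving 17658 genes with 99.8% of counts. Values of log2 CPM use a prior count of 2, and the fitted fold changes use the default prior count of edgeR. Adjusted p-values are Benjamini-Hochberg over all tested genes. DESeq2 1.42.0 and limma 3.58.1 (voom) served as alternatives, beside other filters, scalings, a replicate block, a position covariate and each library left out. Count ratios have exact 95% intervals, which cover counting error only, and a floor of 3 counts over a group at 0. The scripts were tested on simulated data. No replicate pair agreed within sampling noise (chi-square per degree of freedom of 20.9 or more), and each library is a separate mouse.

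The genes named were the 6 members, their 5 relatives, the 5 genes most alike to each member (the first 2 or 3 printed) and genes of fixed lists. Members and lists were chosen with earlier results of these data known, the acinar list after the study's own gene modules had been read and the Hox score after these libraries had been seen. Gene positions are from GENCODE M21 and promoters from RefSeq, both GRCm38.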

Additional observations from a re-analysis of the deposited data

How the results depend on the processing

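The direction of all 36 member results (6 genes in 6 comparisons) was kept with library-size, upper-quartile and DESeq2 scaling. The 2 members called in DSS against Con became 0 with 10 counts required in every sample, in the 2-group fit, by limma-voom, with no filter and without DSS 2, DSS 3 and DSS+UA 3 together (chosen after seeing the data, with the lone DSS library assumed to vary like the other groups), and 1 with the replicate block. They became 3 by DESeq2 (5712 of all genes) and 3 with the position score as covariate, Reg3b being the gene added (adjusted p of 0.0045 and 0.0352). With 10 counts in every sample and in the 2-group fit Reg1 and Reg3a were not tested. Leaving out 1 library gave 0 to 3 called members there, 0 to 1 in DSS+UA against Con (1 without Con 1), 0 to 1 in UA+DSS against DSS (1 without DSS 1) and 0 elsewhere. DESeq2 called 1 in DSS+UA against Con (4661 of all genes) and 2 each in UA+DSS against Con (374), DSS (4497) and DSS+UA (4349).

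With the position score as covariate, the log2 fold change turned sign in DSS+UA against DSS for Reg1 (2.997), Reg3a (2.43), Reg3b (0.38) and Reg3g (0.84). It turned in UA+DSS against DSS for Reg3b (-0.36), Reg4 (3.69) and Retnlb (-2.25), and in UA+DSS against DSS+UA for Reg3b (-0.74), Reg3g (-0.52), Reg4 (3.59) and Retnlb (-5.26). In these comparisons the scores of the groups did not overlap, so these values are poorly bounded. In the same fit Reg1 in UA+DSS against DSS was -14.91, beside -6.47 without the covariate. Against Con it turned for Reg4 in DSS+UA (-0.061) and UA+DSS (3.53) and for Retnlb in DSS (2.71). By limma-voom it turned for Reg1 (0.78) and Reg3a (0.84) in UA+DSS against DSS+UA, for Reg4 in DSS (0.39) and UA+DSS (0.30) against Con and for Retnlb in DSS against Con (1.01). Without DSS 2, DSS 3 and DSS+UA 3 it turned for Reg1 in UA+DSS against DSS (1.89) and DSS+UA (3.96), for Reg3a in DSS+UA against DSS (3.72), UA+DSS against DSS (6.74) and UA+DSS against DSS+UA (3.03), for Reg3b in DSS+UA against DSS (1.07) and for Reg4 in DSS against Con (0.16). With each library left out in turn, values ranged from -3.57 to 3.96 for Reg1 and -2.20 to 3.02 for Reg3a in UA+DSS against DSS+UA, from -1.85 to 2.38, -1.94 to 2.18 and -1.10 to 0.79 for Reg4 in DSS against Con, UA+DSS against Con and UA+DSS against DSS, and from -1.49 to 0.45 and -0.42 to 0.99 for Retnlb in DSS and DSS+UA against Con. The cause was not tested.

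Replicate numbers did not pair the samples: of 18 same-numbered pairs, 5 had a correlation over 0.1 (range -0.22 to 0.19), and 5 of 12 samples correlated best with their own number. With the replicate block, Reg1 kept its call in DSS against Con and Reg3a did not (adjusted p of 0.028 and 0.0667), and the sign turned for Reg1 (0.26) and Reg3a (0.80) in UA+DSS against DSS+UA, for Reg4 in UA+DSS against Con (0.32) and DSS (0.46) and for Retnlb in DSS+UA against Con (-0.052).

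Over all genes, 4688 were called in DSS against Con (1002 to 5712 over the alternatives that leave out no single library), 3193 in DSS+UA against Con (1158 to 4661), 1331 in DSS+UA against DSS (9 to 3107), 1 in UA+DSS against Con (0 to 374), 3300 in UA+DSS against DSS (3 to 4497) and 2961 in UA+DSS against DSS+UA (0 to 4349). With the position score as covariate, 3 genes were called in UA+DSS against DSS and 0 in UA+DSS against DSS+UA. The gene lists were not counted in that fit, so their counts in these comparisons carry this limit. Library-size scaling moved the median log2 fold change by -0.13 in DSS+UA against DSS. With 3 mice a group and 0 or 1 counts of Reg1 and Reg3a in Con, the size of their change is poorly bounded.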
